A study of Homo sapiens with 8 samples.

Results

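Chromatin accessibility at the gate from G1 into S phase was described in 2 myeloma lines through the peaks of 10 genes: the D cyclin genes CCND1, CCND2 and CCND3, their kinase genes CDK4 and CDK6, the inhibitor genes CDKN1A, CDKN1B and CDKN2C, the antisense RNA gene CDKN2B-AS1 and the retinoblastoma gene RB1. A peak belonged to the set when the authors' annotation gave it the symbol of 1 of these genes. That rule chose 50 of 62528 peaks and used no measured value, but the genes were chosen with earlier results of these data known. CDK6 had 19 of them, CDKN2B-AS1 11, CCND3 7, CDKN1A 3, CDKN2C 3, CCND1 2, CDK4 2, CDKN1B 2 and CCND2 1. RB1 had no peak under its own symbol and was dropped, so 9 of the 10 genes are described. Regulation of a gene by a peak named after it was not measured.

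Accessible DNA was read by ATAC-seq, in which the Tn5 transposase cuts and tags open chromatin in isolated nuclei. JJN3 and KMS11, both established lines of human multiple myeloma, were treated for 48 h with 200 nM pomalidomide together with 40 nM GNE-781 (the combination), with 200 nM pomalidomide, with 40 nM GNE-781, or with the vehicle DMSO. Each line and treatment has 1 library, 8 in all, and no group carries any other agent or transgene in the labels used here. Pomalidomide recruits the lymphoid factors IKZF1 and IKZF3 to the cereblon ubiquitin ligase for destruction, and GNE-781 occupies the bromodomain of the histone acetyltransferases EP300 and CREBBP. The comparisons ask what each agent and both together do to accessibility at these genes, whether the combination differs from either agent, and where the lines differ.

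D cyclins bind CDK4 or CDK6, and the active complexes phosphorylate the retinoblastoma protein, which releases E2F factors to switch on S phase genes. p18, encoded by CDKN2C, blocks CDK4 and CDK6 directly, as do the products of CDKN2A and CDKN2B, whose locus CDKN2B-AS1 overlaps. p21 (CDKN1A) and p27 (CDKN1B) inhibit the cyclin-dependent kinases of the next step. Raised expression of a D cyclin, through translocation or otherwise, is a recurrent feature of multiple myeloma, and MAF, a factor overexpressed in some myelomas, activates CCND2. Loss of CDKN2C on the short arm of chromosome 1 is a known lesion of the disease.

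Promoter windows of 7 genes are shown because a peak overlaps each of them, a member peak at 5, a peak named FAF1 at CDKN2C and a peak named CDKN2A at CDKN2B-AS1. Promoter peaks are also described apart from other peaks below, a split that was not tested. The windows are the 250 bases before the RefSeq start in GRCh38.p14, printed 5′ to 3′ on the strand of the gene. Capitals mark GGGCGGGG (SP/KLF factors), CACGTG (an E-box) or TTTCCCGC (E2F factors), on either strand.
CCND3 (chr6:42048689-42048938, minus strand): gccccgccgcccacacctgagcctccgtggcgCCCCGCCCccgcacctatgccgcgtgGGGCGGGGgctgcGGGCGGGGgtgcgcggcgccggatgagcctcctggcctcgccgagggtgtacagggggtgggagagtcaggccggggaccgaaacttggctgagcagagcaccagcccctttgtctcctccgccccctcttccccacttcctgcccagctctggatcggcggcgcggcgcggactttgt
CDK4 (chr12:57752311-57752560, minus strand): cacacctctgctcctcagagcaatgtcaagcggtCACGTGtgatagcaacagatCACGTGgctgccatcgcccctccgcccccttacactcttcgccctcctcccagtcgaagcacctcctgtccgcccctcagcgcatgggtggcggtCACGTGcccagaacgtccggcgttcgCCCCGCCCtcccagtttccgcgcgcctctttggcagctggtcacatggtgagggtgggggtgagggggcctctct
CDK6 (chr7:92836574-92836823, minus strand): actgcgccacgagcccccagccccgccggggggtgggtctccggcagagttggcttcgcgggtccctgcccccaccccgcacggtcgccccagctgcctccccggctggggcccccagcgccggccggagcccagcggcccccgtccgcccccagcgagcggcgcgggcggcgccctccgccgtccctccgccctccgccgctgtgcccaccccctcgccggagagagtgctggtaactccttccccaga
CDKN1A (chr6:36678464-36678713, plus strand): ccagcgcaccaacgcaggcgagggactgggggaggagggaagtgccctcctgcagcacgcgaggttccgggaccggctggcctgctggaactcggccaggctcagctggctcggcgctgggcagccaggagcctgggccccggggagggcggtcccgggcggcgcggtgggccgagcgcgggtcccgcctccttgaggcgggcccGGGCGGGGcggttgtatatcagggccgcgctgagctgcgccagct
CDKN1B (chr12:12717118-12717367, plus strand): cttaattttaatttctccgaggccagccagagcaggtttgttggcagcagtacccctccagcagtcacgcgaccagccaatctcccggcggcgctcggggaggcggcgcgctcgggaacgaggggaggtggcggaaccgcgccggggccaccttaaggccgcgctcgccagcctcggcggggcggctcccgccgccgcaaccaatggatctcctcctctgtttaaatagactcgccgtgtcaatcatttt
CDKN2C (chr1:50960495-50960744, plus strand): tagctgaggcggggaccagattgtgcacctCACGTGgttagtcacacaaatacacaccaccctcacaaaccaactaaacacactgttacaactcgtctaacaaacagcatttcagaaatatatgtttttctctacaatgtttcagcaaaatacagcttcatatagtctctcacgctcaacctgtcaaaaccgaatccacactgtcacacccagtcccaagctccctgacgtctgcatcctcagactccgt
CDKN2B-AS1 (chr9:21994541-21994790, plus strand): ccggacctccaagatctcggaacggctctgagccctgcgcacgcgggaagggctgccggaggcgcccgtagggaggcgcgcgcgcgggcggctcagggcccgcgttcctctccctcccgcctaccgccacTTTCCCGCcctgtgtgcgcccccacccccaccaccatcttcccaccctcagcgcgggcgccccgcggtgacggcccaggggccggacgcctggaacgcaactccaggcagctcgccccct
CDK4 held CACGTG 3 times, a motif found in 6.34% of 35116 RefSeq promoter windows of the same length, and GGGCGGGG 1 time. CCND3 held GGGCGGGG 3 times, and 21.8% of the windows have it. CDKN1A held it 1 time, and CDKN2C held CACGTG 1 time. CDKN2B-AS1 held the E2F motif TTTCCCGC 1 time. Searches on both strands for the E2F motifs TTTGGCGC, TTTCGCGC, TTTGGCGG and TTTCCCGC (any of them in 2.83% of all windows) found no other match in the 7 windows. Searches for the AP-1 motif TGANTCA (6.57%), the ETS motif ACCGGAAG (1.78%), the IRF motif GAAANNGAA (6.88%) and the MAF site TGCTGAC (3.43%) found none in them. RefSeq windows were matched for 8 of the 10 genes. The window matched for RB1 (chr13:48476200-48476449) lies inside the RefSeq gene (chr13:48303751-48481890) and not before the start of that span. No peak overlaps this window, which held TGANTCA 1 time and is not shown.

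Of the 50 peaks, 37 lay inside a gene, 4 were intergenic and 9 (18%) were promoter peaks, here those within 1000 bp of the transcript start in the authors' annotation, against 25.5% promoter peaks among all 62528. All 50 passed the filter of a mean of at least 2 CPM, the count of a peak scaled by the total count of its library. Their mean level over the 8 libraries ran from 4.09 to 76.7 CPM with a median of 13.2 CPM, against a median of 9.23 CPM over all peaks. Library totals were 1366628 to 3218581 counts in JJN3 and 2981408 to 5435673 in KMS11, so 1 CPM stood for 1.37 to 3.22 counts in JJN3 and 2.98 to 5.44 in KMS11. Plasma cell markers were accessible in all libraries, with peaks at 9 of 10 genes (TNFRSF17 had none) that summed to 1159 to 1365 CPM in JJN3 and 763.1 to 942.5 CPM in KMS11. Of 4 B cell genes PAX5 alone had peaks, at 52.51 to 65.73 CPM in JJN3 and 124.9 to 148.9 CPM in KMS11, and of 5 myeloid genes CSF1R alone, at 2.195 to 7.413 CPM. T and NK genes had peaks at 4 of 5, CD247 and CD2 among them, that summed to 394.7 to 451.5 CPM in JJN3 and 306.9 to 386.1 CPM in KMS11. The plasma cell and the T and NK sums were lowest under the combination and highest under DMSO in both lines, with 7 of 56 and 3 of 16 peaks called under the combination by edgeR, where 4.79% of all peaks were called, and 0 and 2 by DESeq2. The 3 T and NK calls were all at CD247. That gene had 280.1 CPM under the combination against 360 under DMSO in JJN3, and 271.4 against 365.5 CPM in KMS11. CD3E, CD2 and NCAM1 were each higher under the combination than under DMSO in both lines. So were IRF4 and XBP1, and the other plasma cell genes were lower in at least 1 line. Erythroid sums were 25.91 to 33.98 CPM in treated JJN3 against 39.51 under DMSO, and 44.27 to 49.3 CPM in treated KMS11 against 59.15 under DMSO. Of the 4 erythroid peaks 1, at HBB, was called under the combination (-2.32, adjusted p = 0.00515), and DESeq2 called 0. Stromal sums were 36.35 to 45.5 CPM in treated JJN3 against 35.12 under DMSO, and 58.03 to 79.37 CPM in treated KMS11 against 46.74 under DMSO, with 0 of 5 peaks called under the combination by edgeR or DESeq2 and 1 at an unadjusted p under 0.05. The part of these marker shifts in the results below was not tested. In bulk nuclei, fewer cells with an open site and a less open site in each cell cannot be told apart.

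Treatment effects are log2 fold changes ± SE from edgeR's quasi-likelihood test over all 8 libraries, with line as a block. A peak was called at a Benjamini-Hochberg adjusted p under 0.05 over 62234 peaks, and every adjusted p is from that test unless DESeq2 is named. Of these peaks 10819 had an unadjusted p under 0.05 under the combination, 6956 under pomalidomide and 4096 under GNE-781, each against DMSO. Single libraries decide much here: of 15 member calls against DMSO, 1 kept its call whichever library was left out, 2 were kept without the KMS11 DMSO library and 4 without the KMS11 combination library. DESeq2's Wald test kept 4 of the 15, and without line as a block none was kept.

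Against DMSO, the combination moved 10 of the 50 peaks: 7 fell, in or near CCND1, CDK6 and CDKN2B-AS1, and 3 rose, in CCND3, CDK6 and CDKN2B-AS1. Of all peaks tested 4.79% were called under the combination, 2.11% higher and 2.67% lower. Pomalidomide alone moved 4 peaks, 2 higher and 2 lower, where 1.25% of all peaks were called, 1.03% higher and 0.228% lower. With median-of-ratios scaling pomalidomide also had 4 calls, 1 higher and 3 lower: the rise at CDKN2B-AS1 peak 3 was no longer called (adjusted p = 0.0581), and CDKN2B-AS1 peak 6 was called lower (-0.78, adjusted p = 0.0495). GNE-781 alone moved 1 peak, lower, where 0.0209% of all peaks were called. The 4 peaks called under pomalidomide were among the 10 called under the combination, and so was the 1 called under GNE-781, but the comparisons share the DMSO libraries. The median log2 change over the 50 peaks was 0.11 under the combination, 0.03 under pomalidomide and -0.04 under GNE-781, against 6.27e-05, 0.02 and -0.0019 over all peaks tested.

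**Figure D1:**
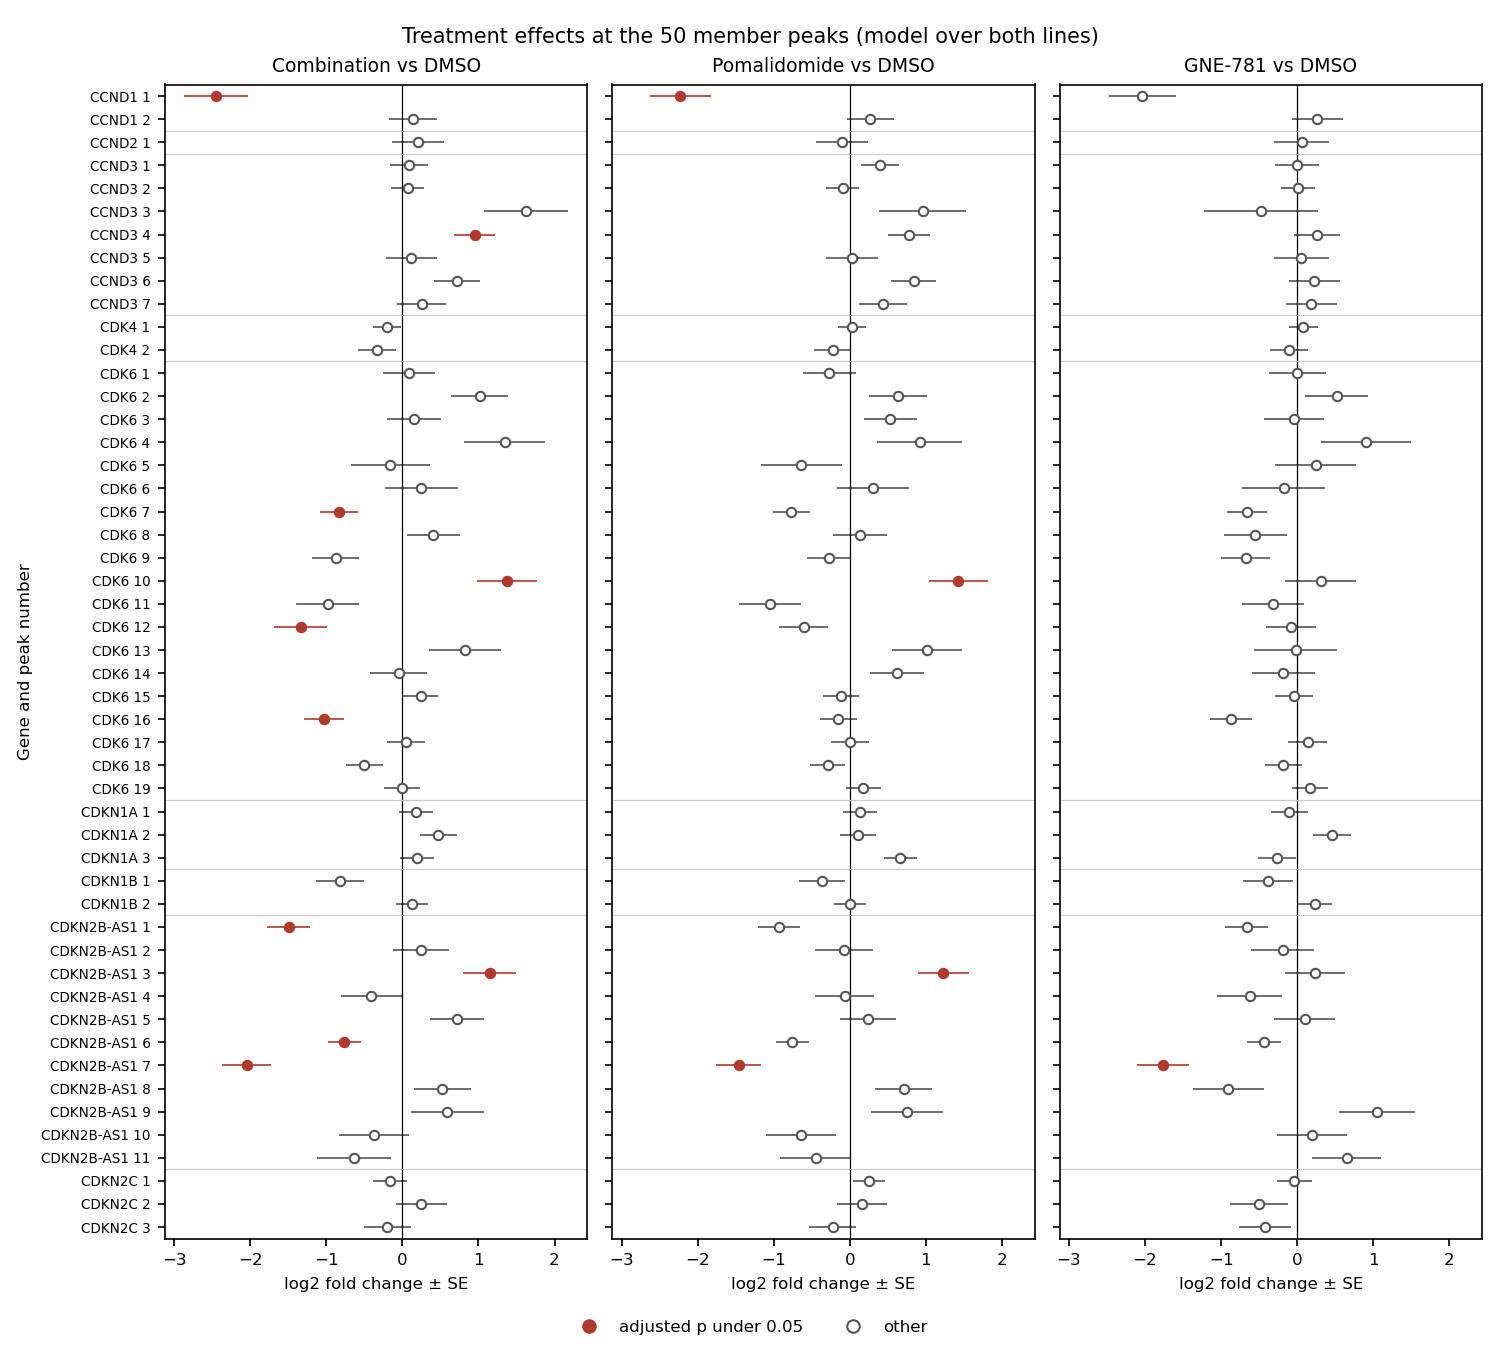
Log2 fold change ± SE (x axis) of each of the 50 peaks (y axis, numbered by position within each gene) for the combination, pomalidomide and GNE-781 against DMSO, with called peaks filled. The lowest point in the combination panel is CCND1 peak 1 at -2.45, and no peak of CCND2, CDK4, CDKN1A, CDKN1B or CDKN2C is filled in any panel.

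No treatment call lay within 1000 bp of an annotated start. Of the 9 promoter peaks 0 were called against DMSO by edgeR or DESeq2 under any treatment, with 1 at an unadjusted p under 0.05 under the combination and 0 under either agent alone. Under the combination 9 of the 37 peaks inside genes and 1 of the 4 intergenic peaks were called. Among all peaks tested, 1.69% of promoter peaks, 5.98% of peaks inside genes and 5.68% of intergenic peaks were called under the combination. No difference between these classes within the set was tested.

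Among the D cyclins, the deepest change was at CCND1, which encodes cyclin D1, at an intergenic peak 62503 bp upstream of its annotated start (peak 1, chr11:69578148-69578584). It had 5.825 CPM under the combination, 6.525 under pomalidomide, 6.952 under GNE-781 and 16.83 under DMSO in JJN3. KMS11 libraries had 1.84 CPM under the combination, 1.744 under pomalidomide, 2.683 under GNE-781 and 16.11 under DMSO. Every treated library of a line was below the DMSO library of that line, and the DMSO libraries of the lines were close to each other. These levels rest on few reads, 12, 21 and 11 counts against 23 in JJN3 and 10, 8 and 8 against 61 in KMS11. The peak fell by 2.45 in log2 units under the combination (SE 0.42, adjusted p = 9.64e-05) and its log2 change under pomalidomide was -2.23 ± 0.40 (adjusted p = 0.000579). Under GNE-781 the log2 change was -2.03 ± 0.44, which missed the threshold (adjusted p = 0.0672).

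Both calls at this peak were kept by DESeq2, and both were lost without the KMS11 DMSO library, at -1.54 (adjusted p = 0.229) for the combination and -1.42 (adjusted p = 0.42) for pomalidomide. They were also lost without the treated KMS11 library, at -2.05 (adjusted p = 0.0754) for the combination and -1.72 (adjusted p = 0.234) for pomalidomide. Without the JJN3 DMSO library the GNE-781 change was -2.78 and passed (adjusted p = 0.00591). The other CCND1 peak, inside the gene 1945 bp from its start (chr11:69643176-69643566), held 11.65 to 16.47 CPM in treated JJN3 against 12.44 under DMSO, and 11.77 to 13.8 CPM in treated KMS11 against 11.09 under DMSO. Its combination change was 0.14 ± 0.32 (95% interval -0.49 to 0.77). Of the 18 peaks of 6 neighbouring genes, MYEOV and TPCN2 among them, edgeR and DESeq2 called 0 under each treatment, with 2 at an unadjusted p under 0.05 under each, and their median combination change was 0.01.

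CCND3, the gene of cyclin D3, had 7 peaks whose combination changes over both lines were all above 0, from 0.07 to 1.62, with 1 called. The lines did not share that sign at every peak. Against the DMSO library of the same line, all 7 were higher in KMS11, while peaks 1, 2, 5 and 7 were lower in JJN3. Those 4 log2 ratios in JJN3 were -0.39 to -0.05. The called peak lay inside the gene, 38273 bp from the RefSeq start (peak 4, chr6:42010020-42010810). It had 27.18 CPM under the combination, 15.22 under pomalidomide, 13.9 under GNE-781 and 10.24 under DMSO in JJN3. The KMS11 levels were 27.96 CPM under the combination, 31.4 under pomalidomide, 19.79 under GNE-781 and 16.9 under DMSO, so every treated library was above the DMSO library of its line. The peak rose by 0.95 ± 0.27 under the combination (adjusted p = 0.0281), and its changes of 0.78 ± 0.27 under pomalidomide (adjusted p = 0.168) and 0.27 ± 0.30 under GNE-781 (adjusted p = 0.944) did not pass. The rise was lost with DESeq2 (adjusted p = 0.23) and without the combination or DMSO library of either line, where its log2 change was 0.69 to 1.41 and its adjusted p 0.0649 to 0.288.

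The largest combination value in CCND3 was at a weak peak (peak 3, chr6:41967010-41967333), named here after its values were seen, with 4.854 CPM under the combination against 2.927 under DMSO in JJN3 and 9.75 against 2.377 CPM in KMS11. Its change of 1.62 ± 0.55 missed the threshold (adjusted p = 0.073) and passed without the JJN3 DMSO library (2.01, adjusted p = 0.0496). The most accessible CCND3 peak (peak 2, chr6:41941257-41942296) had a mean of 37.23 CPM and a combination change of 0.07 ± 0.21. The promoter peak (peak 7, chr6:42048606-42048926) had 14.08, 18.33 and 12.01 CPM under the combination, pomalidomide and GNE-781 against 14.63 under DMSO in JJN3. Its levels in KMS11 were 13.43, 12.65 and 13.75 CPM against 9.507, and its combination change was 0.25 ± 0.32.

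CCND2, the cyclin D2 gene, had 1 peak (chr12:4276881-4277195), a promoter peak by the authors' annotation that lies inside the RefSeq gene. It had 10.19, 6.525 and 9.48 CPM under the combination, pomalidomide and GNE-781 against 8.049 under DMSO in JJN3, and 12.51, 10.9 and 11.07 against 11.09 CPM in KMS11. No change passed, and the combination change was 0.20 ± 0.34 (95% interval -0.47 to 0.88). A pair of peaks that the authors' annotation names CCND2-AS2 lies at or just before the RefSeq start of CCND2. The stronger, chr12:4271834-4273025, had 41.71 CPM in JJN3 and 45.95 CPM in KMS11 under DMSO, and its combination change was -0.33 (adjusted p = 0.421).

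**Figure D2:**
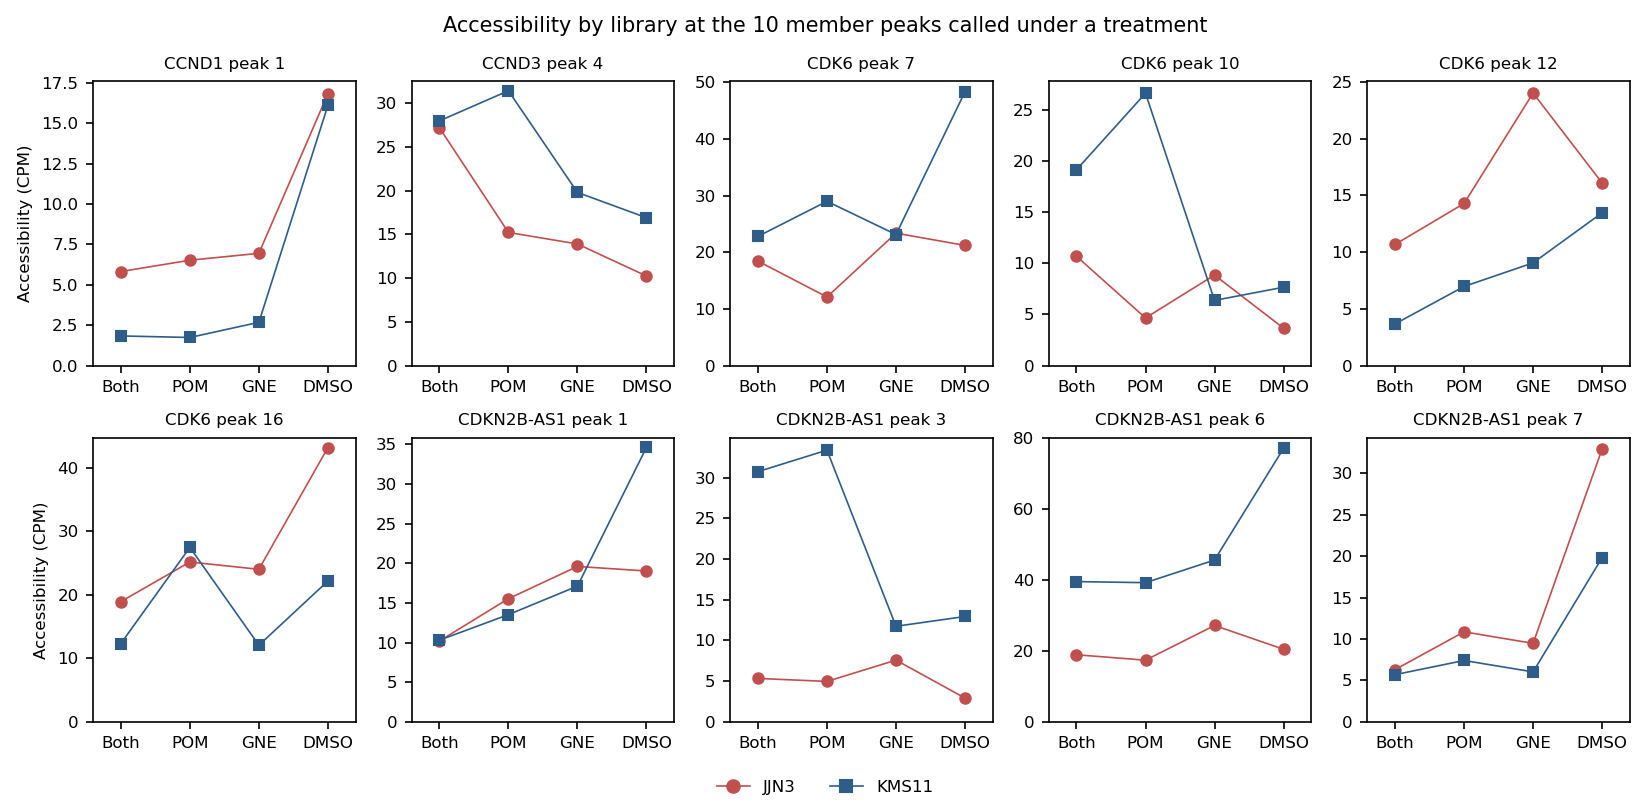
Accessibility in CPM (y axis, from 0) in each library at the 10 peaks called under a treatment, by treatment (x axis: both agents, pomalidomide, GNE-781, DMSO), with JJN3 as circles, KMS11 as squares and lines joining the libraries of 1 cell line. At CCND1 peak 1 and CDKN2B-AS1 peak 7 all treated libraries lie below DMSO in both lines, while at CDKN2B-AS1 peaks 1 and 6 the KMS11 DMSO library stands well above the rest.

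Of the kinases, CDK6 carried 4 of the 10 calls under the combination, in both directions, and the 2 CDK4 peaks 0 under any treatment, by edgeR, by DESeq2 or at an unadjusted p under 0.05. The CDK6 peak 72696 bp into the gene (peak 10, chr7:92763563-92764190) had 10.68 CPM under the combination, 4.66 under pomalidomide, 8.848 under GNE-781 and 3.659 under DMSO in JJN3. In KMS11 it had 19.13 CPM under the combination, 26.6 under pomalidomide, 6.373 under GNE-781 and 7.658 under DMSO. Accessibility under the combination was above DMSO in both lines, while the highest library under a single agent was GNE-781 in JJN3 and pomalidomide in KMS11. The peak rose by 1.37 ± 0.39 under the combination (adjusted p = 0.0277) and by 1.43 ± 0.39 under pomalidomide (adjusted p = 0.0413). The pomalidomide value was -0.00739 without the KMS11 pomalidomide library (adjusted p = 0.999). That call was also lost without the JJN3 DMSO library (1.42, adjusted p = 0.0645), the KMS11 DMSO library (1.32, adjusted p = 0.638) or either combination library (1.43, adjusted p = 0.0668 and 0.0761). The combination call was lost without the KMS11 DMSO library (1.27, adjusted p = 0.505), without either combination library (1.25, adjusted p = 0.142 for JJN3, and 1.69, adjusted p = 0.227 for KMS11), and DESeq2 made neither call.

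The other 3 CDK6 calls were falls under the combination. At peak 16 (chr7:92813402-92814139), 22802 bp into the gene, JJN3 had 18.93 CPM under the combination, 25.17 under pomalidomide, 24.02 under GNE-781 and 43.17 under DMSO. KMS11 had 12.33 CPM under the combination, 27.47 under pomalidomide, 12.07 under GNE-781 and 22.18 under DMSO, so pomalidomide alone was the treated library above DMSO. The peak fell by 1.03 in log2 units under the combination (SE 0.26, adjusted p = 0.0109), against -0.15 ± 0.24 under pomalidomide and -0.87 ± 0.28 under GNE-781 (adjusted p = 0.401). That call was lost without the JJN3 DMSO library (-0.81, adjusted p = 0.156), without either combination library (-1.05, adjusted p = 0.0826 for JJN3, and -1.0, adjusted p = 0.214 for KMS11), and with DESeq2 (adjusted p = 0.112).

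Peak 12 (chr7:92778996-92779433), 57358 bp into CDK6, had 10.68 CPM under the combination, 14.29 under pomalidomide, 24.02 under GNE-781 and 16.1 under DMSO in JJN3. KMS11 libraries had 3.679 CPM under the combination, 6.977 under pomalidomide, 9.056 under GNE-781 and 13.47 under DMSO. It fell by 1.34 in log2 units under the combination (SE 0.35, adjusted p = 0.0137). The value was -0.72 without the KMS11 DMSO library (adjusted p = 0.601) and -1.03 without the KMS11 combination library (adjusted p = 0.362), and DESeq2 did not call it (adjusted p = 0.143).

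Peak 7 (chr7:92720599-92721551), 115498 bp into CDK6, had 18.45 CPM under the combination, 12.12 under pomalidomide, 23.38 under GNE-781 and 21.22 under DMSO in JJN3. The KMS11 levels were 22.81 CPM under the combination, 29 under pomalidomide, 23.14 under GNE-781 and 48.33 under DMSO. The KMS11 DMSO library was above all others, and in JJN3 the combination was close to DMSO. The peak fell by 0.83 in log2 units under the combination (SE 0.25, adjusted p = 0.0372). It was -0.38 without the KMS11 DMSO library (adjusted p = 0.796), -0.50 without the KMS11 combination library (adjusted p = 0.668) and -0.99 without the JJN3 combination library (adjusted p = 0.0559), and DESeq2 did not call it (adjusted p = 0.376).

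The CDK6 promoter peak (peak 19, chr7:92836423-92836994) was the most accessible of the 19, with 22.33, 30.76 and 25.28 CPM under the combination, pomalidomide and GNE-781 against 23.42 under DMSO in JJN3. Its levels in KMS11 were 32.19, 29.43 and 36.22 CPM against 30.63. Its changes were -0.01 ± 0.23 under the combination, 0.18 ± 0.23 under pomalidomide and 0.17 ± 0.24 under GNE-781, with a 95% interval of -0.47 to 0.46 for the combination. The other 14 CDK6 peaks had combination changes of -0.98 to 1.34, and over all 19 the count was 10 above 0 and 9 below.

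CDK4 had 2 peaks, both promoter peaks by the authors' annotation. The stronger (peak 1, chr12:57752065-57752820) was the most accessible of all 50 by mean CPM. It had 46.12, 65.25 and 61.3 CPM under the combination, pomalidomide and GNE-781 against 54.88 under DMSO in JJN3, and 92.17, 87 and 106 against 100.6 CPM in KMS11. Its combination change was -0.20 ± 0.18 (95% interval -0.57 to 0.17). The other (peak 2, chr12:57754632-57755090), centred at -2551 bp from the RefSeq start, had a change of -0.33 ± 0.25 under the combination (adjusted p = 0.539).

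**Figure D3:**
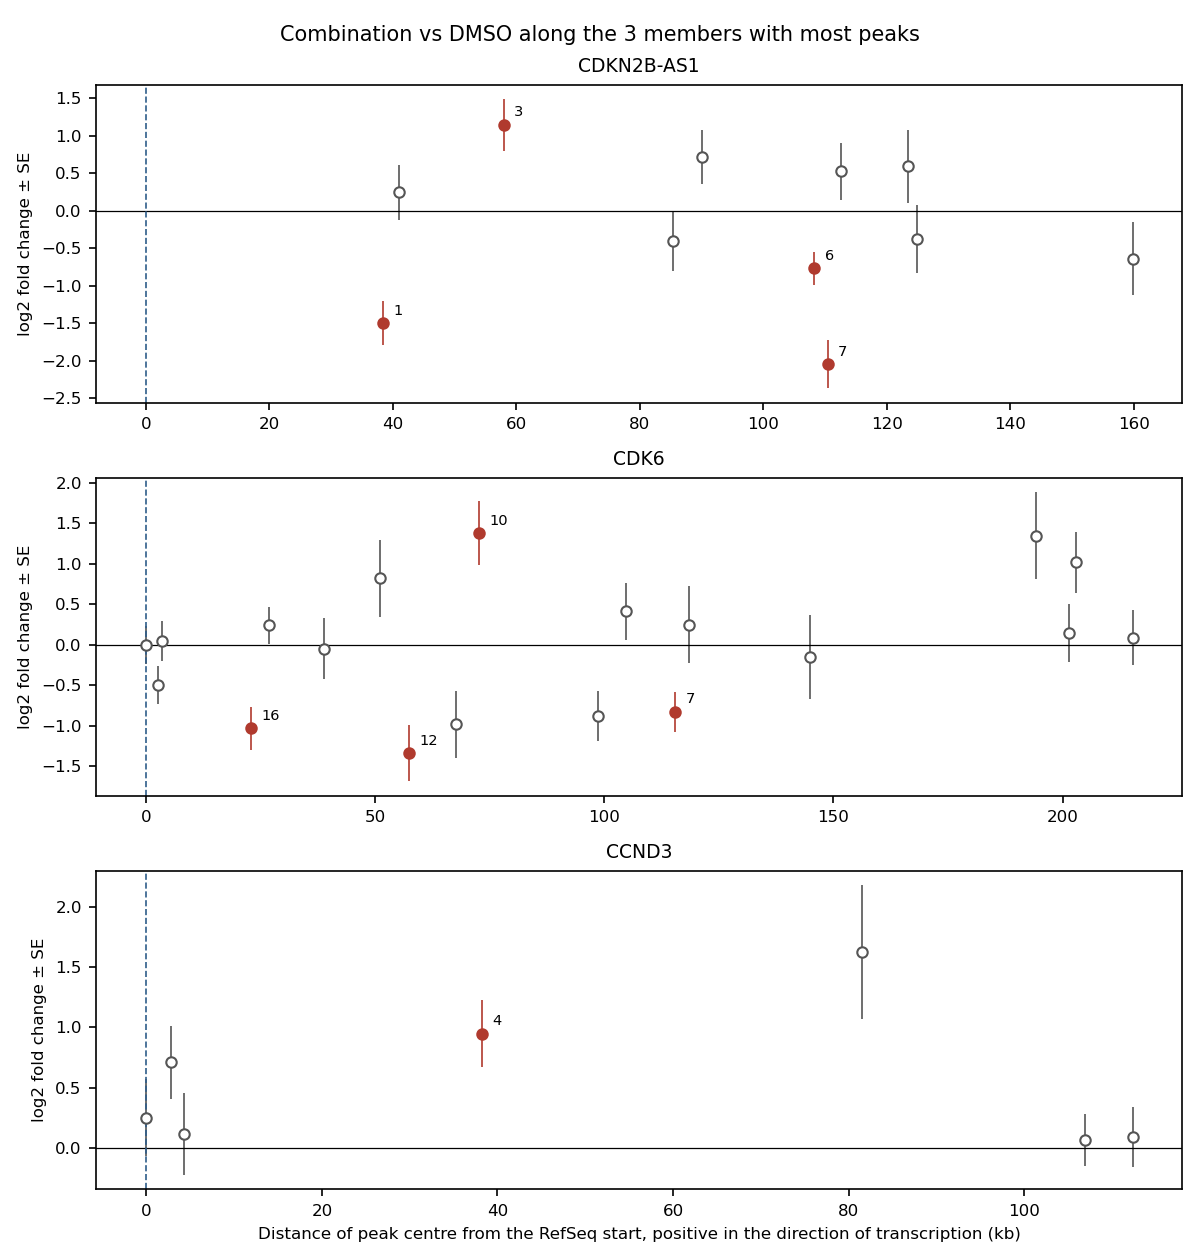
Log2 fold change ± SE for the combination against DMSO (y axis) at each peak of CDKN2B-AS1, CDK6 and CCND3, by the distance of its centre from the RefSeq start in kb (x axis, dashed line at the start), with called peaks filled and numbered. In CDK6 and CDKN2B-AS1, peaks that rose and peaks that fell lie side by side along the gene.

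CDKN2B-AS1, an antisense RNA gene across the locus of the INK4 inhibitors, carried 4 of its 11 peaks as called under the combination. Its peak 7 (chr9:22105022-22105466), 110453 bp from the RefSeq start, was the only member peak called under all 3 treatments. It had 6.311 CPM under the combination, 10.87 under pomalidomide, 9.48 under GNE-781 and 32.93 under DMSO in JJN3. In KMS11 it had 5.703 CPM under the combination, 7.413 under pomalidomide, 6.037 under GNE-781 and 19.81 under DMSO. The DMSO library was the highest of its line in both, and no treated library of either line reached a DMSO library. The peak fell by 2.05 in log2 units under the combination (SE 0.32, adjusted p = 2.53e-05), by 1.46 under pomalidomide (SE 0.30, adjusted p = 0.00306) and by 1.77 under GNE-781 (SE 0.34, adjusted p = 0.0279).

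The combination call at this peak held whichever library was left out, at -2.38 to -1.83 with an adjusted p of at most 0.00955, and DESeq2 made it too. The pomalidomide call was lost without the KMS11 pomalidomide library (-1.43, adjusted p = 0.203), without the KMS11 DMSO library (-1.62, adjusted p = 0.0727) and with DESeq2 (adjusted p = 0.0999). The GNE-781 call was lost without the GNE-781 or DMSO library of either line, at -1.90 to -1.67 with an adjusted p of 0.0764 to 0.667, and with DESeq2 (adjusted p = 0.696).

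Peak 1 of CDKN2B-AS1 (chr9:22032842-22033483) had 10.19 CPM under the combination, 15.53 under pomalidomide, 19.59 under GNE-781 and 19.02 under DMSO in JJN3. KMS11 libraries had 10.3 CPM under the combination, 13.52 under pomalidomide, 17.11 under GNE-781 and 34.59 under DMSO. It fell by 1.5 in log2 units under the combination (SE 0.29, adjusted p = 0.000563), a call that DESeq2 kept. Without the KMS11 DMSO library it was -0.81 (adjusted p = 0.472), and without the KMS11 combination library -1.43 (adjusted p = 0.118).

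Peak 6 (chr9:22102463-22103751), the widest member peak at 1289 bp and the most accessible of the 11, had 18.93, 17.4 and 27.18 CPM under the combination, pomalidomide and GNE-781 against 20.49 under DMSO in JJN3. The KMS11 levels were 39.55, 39.25 and 45.62 CPM against 77.11. It fell by 0.77 in log2 units under the combination (SE 0.22, adjusted p = 0.0256). In JJN3 the combination library was close to DMSO, and without the KMS11 DMSO library the value was -0.09 (adjusted p = 0.963). The call was also lost without either combination library (-0.81, adjusted p = 0.073 for JJN3, and -0.65, adjusted p = 0.487 for KMS11) and with DESeq2 (adjusted p = 0.314).

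Peak 3 (chr9:22052368-22053140) was the only CDKN2B-AS1 peak called higher under a treatment. It had 5.34, 4.971 and 7.584 CPM under the combination, pomalidomide and GNE-781 against 2.927 under DMSO in JJN3, and 30.72, 33.36 and 11.74 against 12.94 CPM in KMS11. It rose by 1.15 ± 0.34 under the combination (adjusted p = 0.0369) and by 1.23 ± 0.34 under pomalidomide (adjusted p = 0.0482). Both calls were lost without either DMSO library, either combination library or the KMS11 pomalidomide library, each left out alone. The combination value then had an adjusted p of up to 0.759 (0.67, without the KMS11 combination library). The pomalidomide value had one of up to 0.903 (0.55, without the KMS11 pomalidomide library), and the pomalidomide call was also lost with median-of-ratios scaling (adjusted p = 0.0581). DESeq2 made neither call. The 7 other peaks of the gene had combination changes of -0.64 to 0.72. Of the 20 peaks of its neighbours CDKN2A, CDKN2B, MTAP and DMRTA1, edgeR and DESeq2 called 0 under each treatment, with 1, 1 and 0 at an unadjusted p under 0.05 under the combination, pomalidomide and GNE-781. The RefSeq start of CDKN2B-AS1 lies in a peak named CDKN2A (chr9:21994050-21996080), where the combination change was -0.33 ± 0.19 (adjusted p = 0.37).

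At the 8 peaks of the p21, p27 and p18 genes, edgeR and DESeq2 made 0 calls under each treatment, with 2, 1 and 0 at an unadjusted p under 0.05 under the combination, pomalidomide and GNE-781. CDKN1A, the p21 gene, had 3 peaks with combination changes of 0.18 to 0.47. Its promoter peak (peak 1, chr6:36678440-36678951) had 42.72, 46.29 and 38.55 CPM under the combination, pomalidomide and GNE-781 against 36.59 under DMSO in JJN3. Its levels in KMS11 were 24.65, 19.41 and 18.45 CPM against 21.39, and its combination change was 0.18 ± 0.22 (95% interval -0.27 to 0.63). Its most accessible peak, inside the gene (peak 3, chr6:36682495-36683231), had a change of 0.66 ± 0.22 under pomalidomide (adjusted p = 0.124) and 0.19 ± 0.22 under the combination.

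CDKN1B, the p27 gene, had 2 promoter peaks by the authors' annotation. The one at the RefSeq start (peak 2, chr12:12716828-12717605) had 27.18, 30.45 and 37.29 CPM under the combination, pomalidomide and GNE-781 against 31.46 under DMSO in JJN3, and 45.99, 35.32 and 43.27 against 36.18 CPM in KMS11. Its combination change was 0.13 ± 0.21 (95% interval -0.30 to 0.55), and that of the weaker peak, centred at -1782 bp from the start, was -0.82 ± 0.32 (adjusted p = 0.135). CDKN2C, the p18 gene, had 3 peaks. Its promoter peak by the authors' annotation (peak 1, chr1:50968099-50969215), 7912 bp into the RefSeq gene, had 50, 71.15 and 58.78 CPM under the combination, pomalidomide and GNE-781 against 52.68 under DMSO in JJN3, and 16.74, 18.32 and 16.44 against 19.01 CPM in KMS11. Its combination change was -0.16 ± 0.22 (95% interval -0.60 to 0.28).

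For RB1, the start of the RefSeq gene lies in a peak that the authors' annotation names LINC00441 (chr13:48303233-48304166). That peak is no member, and it had 19.76 CPM in JJN3 and 25.88 CPM in KMS11 under DMSO. Its combination change was 0.44 (adjusted p = 0.331). No other peak lay within the RefSeq span of RB1 or within 1000 bp of it.

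No member peak was called between the combination and either agent with all 8 libraries. Against pomalidomide 0 of 50 peaks were called (background 0.0112%) and against GNE-781 0 of 50 (background 1.09%) by edgeR, with 6 and 10 at an unadjusted p under 0.05. Over all 62234 peaks tested, 4605 and 6675 were under that cut. DESeq2 called 0 in both and gave no adjusted p for 10 of the peaks against GNE-781. Against GNE-781 other settings did make calls: 3 with only the 4 libraries compared, 3 without the JJN3 GNE-781 library, 2 without either DMSO library and 1 without the JJN3 pomalidomide library. A departure from additivity is the combination change less the added log2 changes of both agents. It was called at 0 of 50 peaks (background 0%), and at 0 by DESeq2. At an unadjusted p under 0.05 there were 1643 of all 62234 peaks tested, 2 of them member peaks. These 2 were CCND1 peak 1, at 1.81 (95% interval 0.47 to 3.16, adjusted p = 0.9999), and CDKN2B-AS1 peak 7, at 1.18 (95% interval 0.20 to 2.16, adjusted p = 0.9999). Their unadjusted intervals lay above 0, towards a combination change less negative than the sum of the single changes, but neither departure passed. Treated libraries held as few as 8 counts at CCND1 peak 1 and 13 at CDKN2B-AS1 peak 7. Whether such low counts limit a further fall was not tested. The lowest adjusted p against GNE-781 was 0.0606, at CDK6 peak 12 (-1.25 ± 0.36), followed by CCND3 peak 3 at 0.067 (2.1 ± 0.60), both named after their values were seen. With only the 4 libraries both passed, at -1.23 (adjusted p = 0.036) and 2.1 (adjusted p = 0.0201). Against pomalidomide the lowest was 0.269, at CDK6 peak 16 (-0.88 ± 0.25). At CDKN2B-AS1 peak 7 the log2 difference of the combination from pomalidomide was -0.58 (95% interval -1.27 to 0.10) and from GNE-781 -0.28 (-1.05 to 0.49). At CCND1 peak 1 the difference from pomalidomide was -0.22 (-1.20 to 0.75) and from GNE-781 -0.41 (-1.47 to 0.64).

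No difference in response between the lines passed the test at a member peak, although many ratios had opposite signs. Under the combination 17 peaks were above DMSO in both lines, 16 below in both and 17 went opposite ways, and 59.1% of all peaks had the same sign in both lines. Under pomalidomide the counts were 14, 17 and 19, with 54.4% of the same sign over all peaks, and under GNE-781 they were 13, 13 and 24, with 52.2%. The test of the difference between the lines called 0 of 50 peaks for pomalidomide (background 0.0675%) and 0 of 50 for GNE-781 (background 0.00964%) by edgeR, with 9 and 6 at an unadjusted p under 0.05, and 0 by DESeq2 for both. Over all 62234 peaks tested, 4973 and 4445 had an unadjusted p under 0.05. The line test takes the agents as additive, so the change of an agent pools its libraries with and without the other agent. At CCND1 peak 1 the pomalidomide change so pooled was higher in JJN3 by 1.29 ± 0.61 (95% interval 0.09 to 2.49, adjusted p = 0.583). The log2 ratio of pomalidomide alone to DMSO there was -1.29 in JJN3 and -2.81 in KMS11. At CDK6 peak 10 the pomalidomide change differed by -1.40 ± 0.53 (JJN3 minus KMS11, adjusted p = 0.4) and the GNE-781 change differed by 1.58 ± 0.49 (adjusted p = 0.368). Within a line a ratio to DMSO compares 2 libraries and has no replicate check.

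**Figure D4:**
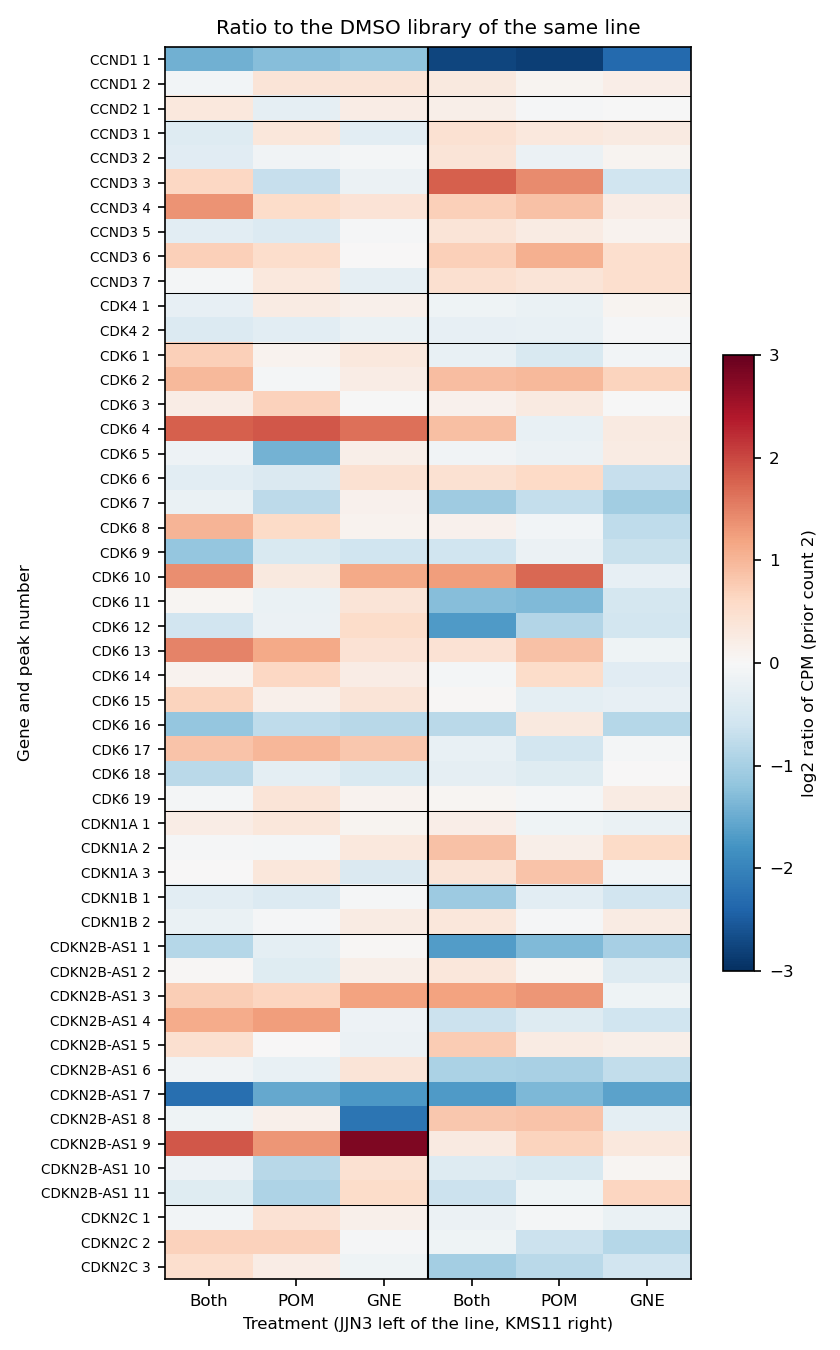
Log2 ratio of CPM to the DMSO library of the same line (colour, prior count of 2) for each of the 50 peaks (rows) under both agents, pomalidomide and GNE-781 (columns) in JJN3, left, and KMS11, right. CCND1 peak 1 and CDKN2B-AS1 peak 7 are below 0 in all 6 columns, from -2.81 to -1.20 and from -2.27 to -1.34.

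Summing the counts of all peaks of a gene called no member gene by edgeR under pomalidomide (background 0.595%), GNE-781 (background 0%) or the combination (background 3.49%), and DESeq2 called 0 in each. At an unadjusted p under 0.05 there were 3 of 9 genes under the combination, 4 under pomalidomide and 2 under GNE-781. The share of all gene entries under that cut was not counted. CCND1 had 17.48, 22.99 and 23.38 CPM under the combination, pomalidomide and GNE-781 against 29.27 under DMSO in JJN3, and 15.64, 13.52 and 15.43 against 27.2 CPM in KMS11. Its combination change was -0.81 ± 0.25 (adjusted p = 0.0544), and it passed without the JJN3 DMSO library (-0.98, adjusted p = 0.0478) and with median-of-ratios scaling (adjusted p = 0.0468). CDKN2B-AS1 had a change of -0.46 ± 0.15 under the combination (adjusted p = 0.0637), CCND3 of 0.35 ± 0.14 (adjusted p = 0.186) and CDK6 of -0.15 ± 0.12 (adjusted p = 0.617). For CDK6 the single peaks moved both ways and the sum was 256.8, 254.8 and 267.3 CPM under the combination, pomalidomide and GNE-781 against 253.2 under DMSO in JJN3, and 259.4, 280.4 and 247.2 against 302.6 CPM in KMS11.

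JJN3 and KMS11 differed most at CDKN2C, whose peaks were higher in JJN3, and at CDKN2B-AS1, whose called peaks were lower. Over 4 libraries per line, 13 of 50 peaks were called at an adjusted p under 0.05 and at least a 2-fold difference, 8 higher and 5 lower in JJN3, where 31.9% of all peaks were called, 16.1% higher and 15.8% lower. All 3 CDKN2C peaks were higher in JJN3. The promoter peak had 50 to 71.15 CPM in JJN3 against 16.44 to 19.01 CPM in KMS11, a log2 difference of 1.80 ± 0.15 (adjusted p = 5.89e-16). The intergenic peaks chr1:50976962-50977587 and chr1:50977834-50978551 differed by 2.20 ± 0.24 and 2.43 ± 0.23 (adjusted p = 4.3e-12 and 2.27e-14). In JJN3 these intergenic peaks had 17.06 to 28.89 and 24.02 to 37.86 CPM, against 3.69 to 7.13 and 4.231 to 9.243 CPM in KMS11.

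That difference was not confined to CDKN2C. A peak named FAF1 that overlaps the promoter window of CDKN2C printed above (chr1:50959627-50960700) had 47.4 to 60.9 CPM in JJN3 against 8.721 to 16.57 CPM in KMS11, a log2 difference of 2.07 ± 0.16. Within 1 Mb on either side, a window chosen after values were seen, 24 other peaks had a median log2 difference of 1.93, with 17 called higher and 5 lower in JJN3, against a median of 0.06 over 6735 peaks of chromosome 1. More copies of the DNA and more open chromatin cannot be told apart in these counts.

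Peaks of CDKN2B-AS1 went the other way. Peak 3 was lower in JJN3, with 2.927 to 7.584 CPM against 11.74 to 33.36 CPM in KMS11, a log2 difference of -2.07 ± 0.27 (adjusted p = 1.2e-09). Peaks 4 and 5 (chr9:22079780-22080442 and chr9:22084524-22085264) differed by -1.73 ± 0.33 and -1.67 ± 0.28, and peak 6 by -1.13 ± 0.17. Within 1 Mb, 56 other peaks had a median of -0.63, against -0.50 over 2706 peaks of chromosome 9. Peak 7, with 6.311 to 32.93 CPM in JJN3 and 5.703 to 19.81 CPM in KMS11, had a log2 difference of 0.63 ± 0.24 and was not called.

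**Figure D5:**
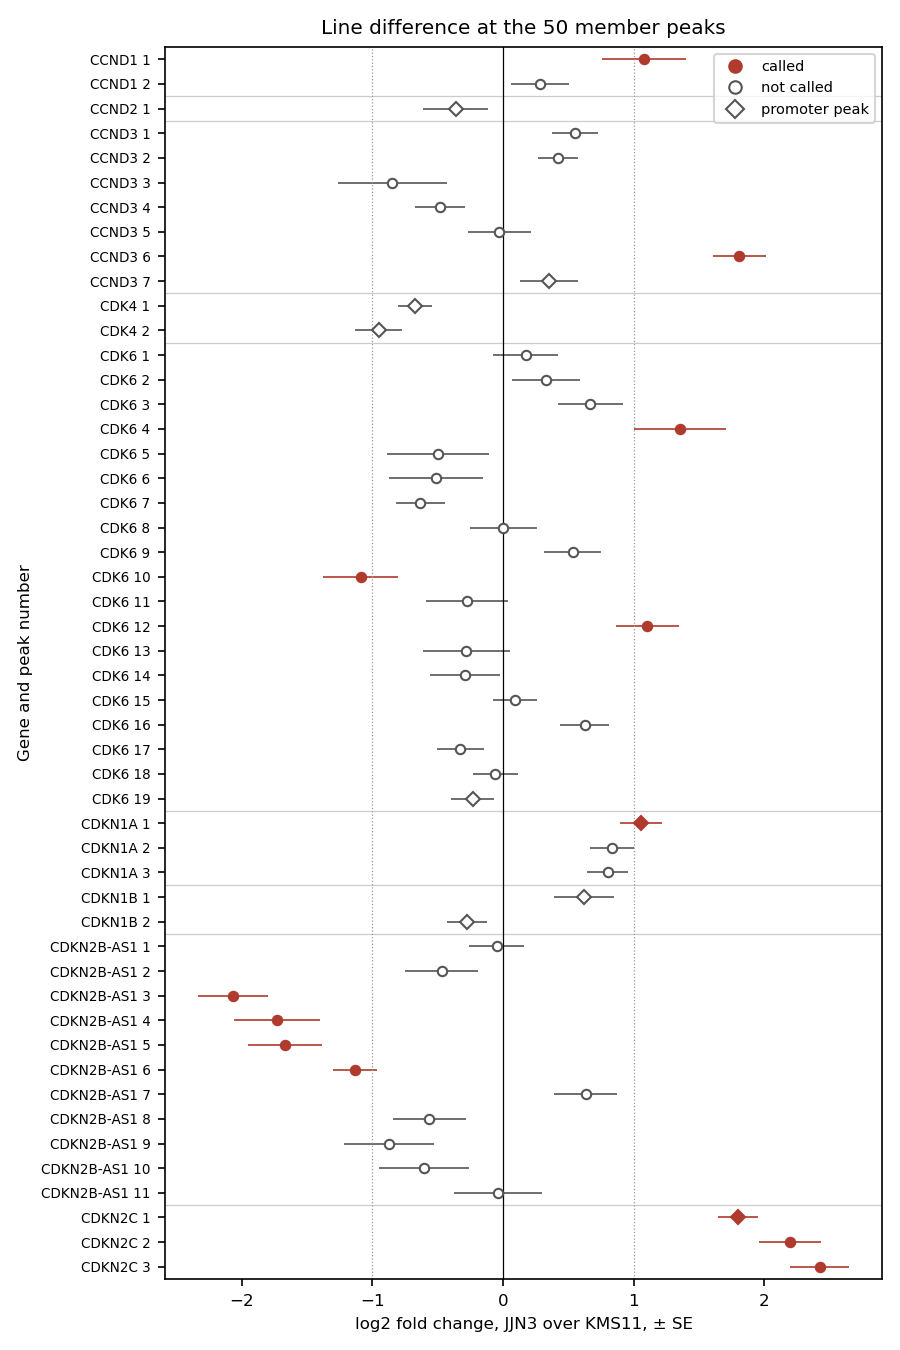
Log2 fold change of JJN3 over KMS11 ± SE (x axis) at each of the 50 peaks (y axis), with called peaks filled, promoter peaks as diamonds and dotted lines at a difference of 1. The 3 CDKN2C peaks lie at 1.80 to 2.43, and CDKN2B-AS1 peaks 3 to 6 lie at -2.07 to -1.13.

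Among the cyclins and kinases, CCND3 peak 6 (chr6:42045611-42046083), 2841 bp into the gene, had 21.95 to 36.41 CPM in JJN3 against 5.282 to 11.77 CPM in KMS11, a log2 difference of 1.81 ± 0.21 (adjusted p = 2.17e-11). The CDKN1A promoter peak was higher in JJN3, with 36.59 to 46.29 CPM against 18.45 to 24.65 CPM, at 1.06 ± 0.16. Within 1 Mb, 75 other peaks around CCND3 had a median of 0.345 and 80 around CDKN1A 0.361, against 0.09 over 3634 peaks of chromosome 6. Over all 4 treatments CCND1 peak 1 was higher in JJN3 at 1.08 ± 0.32, CDK6 peaks 4 and 12 at 1.36 ± 0.36 and 1.11 ± 0.24, and CDK6 peak 10 was lower at -1.09 ± 0.28. Under DMSO alone, JJN3 and KMS11 had 16.83 and 16.11 CPM at CCND1 peak 1. At CDK6 they had 2.195 and 2.377 CPM at peak 4, 16.1 and 13.47 at peak 12, and 3.659 and 7.658 at peak 10. Other peaks within 1 Mb had a median of 0.51 around CCND1, against 0.49 over chromosome 11. Around CDK6 it was 0.17, against 0.26 over chromosome 7. Of the 13 line calls 7 held whichever library was left out, those of CDKN2C, CCND3 peak 6 and CDKN2B-AS1 peaks 3, 4 and 5. CDKN1A peak 1 stood at 0.93 without the JJN3 pomalidomide library and 0.92 without the KMS11 one, and CDKN2B-AS1 peak 6 at -0.87 and -0.90 without the DMSO libraries of JJN3 and KMS11, all below a 2-fold difference. CCND1 peak 1 dropped to as low as 0.81 and lost its call without 5 of the libraries, all but those of DMSO and the JJN3 GNE-781 library. CDK6 peak 4 and peak 10 lost theirs without either pomalidomide library (0.94, and -0.45), and CDK6 peak 12 without a combination or GNE-781 library (0.98 to 0.99).

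CDK4 differed by less than 2-fold. Its promoter peak 1 had 46.12 to 65.25 CPM in JJN3 against 87 to 106 CPM in KMS11, a log2 difference of -0.67 ± 0.13 (adjusted p = 1.47e-05), and 79 other peaks within 1 Mb had a median of -0.73 against -0.34 over 2550 peaks of chromosome 12. Per kb of peak, the CDKN1A promoter peak had 80.2 ± 8.47 CPM per kb (SD over the 4 libraries) and the CDK4 promoter peak 75.2 ± 11.1 in JJN3, which did not differ beyond their spread. In KMS11 the CDK4 promoter peak was highest, at 128 ± 11.2 CPM per kb, followed by its second peak at 66.5 ± 6.03, CDK6 at 56.2 ± 5.17 and CDKN1B at 51.7 ± 6.76. CDKN2C stood at 52.1 ± 8.42 CPM per kb in JJN3 and at 15.8 ± 1.11 in KMS11, the lowest promoter level of that line. These SDs span 4 treatments and are no replicate error.

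Of 33 other genes of the G1/S pathway, 30 had 73 peaks. By edgeR the combination called 1 of them higher and 4 lower, where 2.11% of all peaks tested were called higher and 2.67% lower, and DESeq2 called 2. Pomalidomide and GNE-781 each called 0 by edgeR and by DESeq2, with 11 and 8 at an unadjusted p under 0.05. The rise was inside TFDP2, the partner of E2F factors (chr3:142117110-142117805, 1.61 ± 0.32, adjusted p = 0.000844). The E2F1 promoter peak fell by 1.22 in log2 units (SE 0.24, adjusted p = 0.000844, chr20:33685126-33686099), and the other falls were 2 peaks in CCNE2, the cyclin E2 gene, and 1 in E2F5. These 5 calls were not repeated with a library left out. The median combination change of the 73 peaks was -0.03, against 6.27e-05 over all peaks tested. Between the lines 9 of the 73 were called higher and 4 lower in JJN3, where 16.1% of all peaks tested were called higher and 15.8% lower.

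By the sum of its peaks, each D cyclin gene was set against the other gene entries of at least 20 CPM over the 8 libraries, after centring each line. The entries most like CCND1 among 14472 were RNU6-474P, GLYAT and EGF (Pearson r 0.977, 0.973 and 0.971). Those most like CCND3 were PLB1, TEAD4 and SORD (0.989, 0.986 and 0.986), and those most like CCND2 were NECAP2, HMGB3P23 and RP11-631F7.1 (0.982, 0.967 and 0.962). These are descriptions over 8 libraries that share treatments and depth. How high the top r among so many entries would be by chance was not measured. CCND2 itself was below 20 CPM, with a mean of 8.562 CPM in JJN3 and 11.39 CPM in KMS11.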

How the data were processed

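ATAC-seq reads were processed by the submitters. Their processing notes name the aligner Bowtie2 2.3.5.1, the peak caller MACS2 2.1.1.20160309, cutadapt 2.5 with Trim Galore 0.6.4, R 4.1.2, SAMtools 1.10 and the build GRCh38. The deposited table holds raw counts per peak in each of 8 libraries, over a union of MACS2 peaks at a q-value of 0.01 per the table's name. Whether reads or fragments were counted, and how cut sites were shifted, is not given in the sources used here. All 8 per-sample columns were used, and cells of the series outside these 8 libraries were not analysed here.

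Peaks with a mean of at least 2 CPM over the 8 libraries were kept (62234, with 294 removed). Counts were scaled by TMM and fitted with edgeR 4.0.16 (R 4.3.3) by its quasi-likelihood test, with line and treatment as terms, which left 3 residual degrees of freedom. Line dependence was tested in a model with line interactions that takes the agents as additive and leaves 2 residual degrees of freedom. P-values were adjusted by Benjamini-Hochberg over all peaks, and line calls also needed a 2-fold difference. Gene sums add the counts of all peaks of a symbol (24872 entries). Within-line log2 ratios used a prior count of 2. The scripts were tested on simulated data.

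The line is the block: same-named libraries of the 4 treatments come from the same cell line. With 1 library per line and treatment, the residual spread mixes error with line differences in response, and the labels do not say that libraries came from separate cultures, so p-values measure only the spread between these libraries. Alternatives were median-of-ratios scaling, no filter, DESeq2 1.42.0, no line term, only the 4 libraries of a contrast, distal peaks alone for gene sums, and leaving out each library. Named peaks are the main promoter peak and the most accessible peak of each gene, every peak called against DMSO and the 5 largest called line differences. Other peaks with values, and the other line calls, were chosen after their values were seen. The members and lists were chosen with earlier results of these data known.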

Additional observations from a re-analysis of the deposited data

How the results depend on the processing

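Of the 15 member calls against DMSO, 14 were kept with median-of-ratios scaling, 15 without the filter and 15 with only the 4 libraries compared. DESeq2 called 3 member peaks under the combination against 10, 1 under pomalidomide against 4 and 0 under GNE-781 against 1, and it kept 12 of the 13 line calls. With no replicate block (line left out), 0 member peaks were called under the combination, 0 under pomalidomide and 0 under GNE-781. With only the 4 libraries of a contrast, GNE-781 called 2 member peaks and the combination against GNE-781 called 3. With median-of-ratios scaling 1 gene sum, CCND1, was called under the combination. Leaving out 1 library at a time gave 1 to 10 called member peaks for the combination, 0 to 5 for pomalidomide, 0 to 1 for GNE-781, 0 to 3 for the combination against GNE-781 and 9 to 14 between JJN3 and KMS11. It gave 0 to 0 for the combination against pomalidomide, for the departure from additivity and for line dependence of both agents, and 0 to 1 gene sums under the combination and 0 under either agent. The combination count was 4 without the JJN3 combination library, 1 without the KMS11 one and 2 without KMS11 DMSO. The pomalidomide count was 0 without KMS11 pomalidomide or KMS11 DMSO and 2 without either combination library, and the GNE-781 count was 0 without either GNE-781 library or KMS11 DMSO. The pomalidomide change of CDK6 peak 10 was -0.00739 without KMS11 pomalidomide, a reversal, and 1.92 without JJN3 pomalidomide. The cause was not tested. Over the whole table the combination called 2979 peaks against 394 by DESeq2 and 0 without the block. Pomalidomide called 780 against 74 by DESeq2 and 0 without the block, and GNE-781 called 13 against 0, 0 and, with only its 4 libraries, 49. Where a library was left out its arm held 1 library, assumed to vary like the others. DESeq2 gave no adjusted p for 10 member peaks under pomalidomide, under the combination and for the combination against GNE-781, and distal sums gave no value for CCND2, CDK4 and CDKN1B. Depth limits the weakest peaks, with as few as 1 count at CDKN2B-AS1 peak 9 under DMSO in JJN3.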
